A study of Mus musculus with 16 samples.

Results

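The mRNA levels of 9 transcription factors that mark neural stem cells (NSCs) of the forebrain were followed in RNA-seq libraries of cultured mouse cortical NSCs. These are the SoxB1 proteins Sox1, Sox2 and Sox3, the homeodomain proteins Pax6, Emx1, Emx2 and Lhx2, the orphan nuclear receptor Nr2e1 (Tlx) and the AT-hook chromatin protein Hmga2. The rule that selects the members uses their names and no measured value, though the set was put together with earlier results of these data known, and each of the 9 symbols stands on 1 of the 55471 lines of each deposited table. The cells came from cortices of C57BL/6 embryos at E15 to E16, pooled from both sexes, and were grown as a monolayer with FGF2 until differentiation medium was given on day 5 after seeding. A day after seeding they received a lentivirus that expressed a scrambled shRNA (shRNA CON) or an shRNA against RUS (shRNA RUS), a long noncoding RNA annotated as Gm20754. Libraries of polyA RNA were made on day 5 and day 7, 16 in all with 4 for each combination, so that every group carries a virus and no untransduced cells were compared. A single shRNA sequence was used against RUS. To assess its specificity, the paper expressed RUS again from another virus in depleted cultures. It reports that neuron formation, judged by β-tubulin III staining, was largely restored. No such cells are among these libraries. The study describes 4 experiments per condition, and the labels do not say which libraries share a culture, so the p-values measure the spread between these libraries.

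As background, SoxB1 proteins bind DNA through an HMG box and, together with POU factors, keep neural progenitors undifferentiated, while differentiation goes along with their loss. Pax6, Emx2, Emx1 and Lhx2 pattern the dorsal forebrain, where Pax6 and Emx2 are known for opposed gradients across the cortical sheet and Lhx2 sets cortical identity through LIM cofactors. Nr2e1 is a repressor needed for the self-renewal of NSCs, and Hmga2 is a factor of young, fetal stem cells whose mRNA is a classical target of the let-7 microRNAs.

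The genes lie on 7 chromosomes of the mouse genome (GRCm38). Sox1 (ENSMUSG00000096014.1) is at chr8:12395295-12400126, Sox2 (ENSMUSG00000074637.7) at chr3:34650405-34652461 and Sox3 (ENSMUSG00000045179.9) at chrX:60891366-60893430, and each of these 3 genes has 1 exon. Sox1 and Sox2 lie within longer noncoding genes of the same strand, Sox1ot and Sox2ot. Pax6 is at chr2:105668900-105697364 and Emx2 at chr19:59458372-59465357, and each has an antisense gene, Pax6os1 and Emx2os. Lhx2, at chr2:38339281-38369733, is overlapped by the antisense genes Gm27197 and Gm13584. Emx1, at chr6:85187438-85204462, and Nr2e1, at chr10:42561963-42583632, overlap no other annotated gene. Hmga2, at chr10:120361275-120476469, has the longest span of the 9 genes, 115195 bp, and is overlapped by the antisense genes 1700006J14Rik and 9230105E05Rik and by Mir763 on its own strand. The microRNA gene Gm25239 lies on the strand of Sox1 and overlaps it. Whether the libraries kept the strand is not given in the sources used here, so reads of a gene and of its antisense partner cannot be told apart. Around their start sites the members are rich in CpG: the 8 with a promoter in RefSeq's table (GRCm38.p6, 250 bases before to 50 after the start) hold 12 to 37 CG dinucleotides, against a median of 8 over 27025 genes, and 42.0% of all genes hold at least 12.

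Hmga2 is the member with the clearest known link to a short sequence. Its target sites are shown because it was also the member that changed most between the days in the main analysis. That rank depends on the constant added before the log2. The mature let-7a of RefSeq is given with its seed (bases 2 to 8) in capitals, followed by the 4 stretches of the Hmga2 3′ UTR (transcript ENSMUST00000159699.1, GRCm38, minus strand, last exon) that hold the match CTACCTC, printed 5′ to 3′ on the mRNA strand with the match in capitals.
mmu-let-7a-5p: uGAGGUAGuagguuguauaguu
Hmga2 site 1, chr10:120364221-120364239: ttcaatttCTACCTCagca
Hmga2 site 2, chr10:120362984-120363002: cctcaataCTACCTCtgaa
Hmga2 site 3, chr10:120362546-120362564: gcaaggaaCTACCTCcaca
Hmga2 site 4, chr10:120361688-120361706: acacactaCTACCTCttaa
The matches begin at bases 58, 1295, 1733 and 2591 of a 3′ UTR of 3014 bases. Of 21677 genes with a coding 3′ UTR in the annotation, 8.75% held the match at least once on the mRNA strand, and 12 genes, Hmga2 included, held it at least 4 times. None of the other 8 members held it in its longest 3′ UTR. These matches are a description of the sequence, and let-7 itself was not measured in these libraries.

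The tables give TPM (a transcript measure scaled for gene length and to a fixed sum per library) and no counts, so the depth behind each value is unknown. Per library, 25615 to 29126 genes were listed above 0. The targeted gene Gm20754 was low throughout, at 0.24, 0.11, 0.18 and 0.16 TPM in shRNA CON and 0.05, 0, 0.12 and 0.32 TPM in shRNA RUS on day 5, and at 0.70, 0.72, 0.26 and 0.54 against 0.54, 0.38, 0 and 0.04 TPM on day 7. The mean in shRNA RUS was thus 71.0% of control on day 5 (exact two-sided permutation test, p = 0.543) and 43.2% on day 7 (p = 0.143 by the same exact test, where 0.0286 is the smallest p that 4 against 4 libraries allow). The share was 32.9% on day 5 without shRNA RUS library 4 and 25.2% on day 7 without library 1, and leaving out any other library gave up to 94.7 and 57.7%. Markers of several cell types were detected. The radial glia genes Vim and Fabp7 stood at means of 8918 and 3510 TPM in shRNA CON on day 5, but the interneuron lineage gene Dlx1 had group means of 75.5 to 174 TPM, above the 2.28 to 7.11 TPM of the cortical gene Emx1. Of the 5 endothelial and mural markers Cldn5 was at or near 0, and their summed level was 16.2 to 24.2 TPM on day 5 and 18.2 to 19.8 TPM in control against 31.0 to 33.8 TPM in shRNA RUS on day 7, where Pdgfrb was higher and Kdr lower. The marker counts that follow are of genes called at a limma adjusted p under 0.05, where 14.8% of all genes were called higher and 17.9% lower on day 5, and 23.4% and 25.8% on day 7. Proliferation markers were lower in shRNA RUS on both days, 8 of 8 each time, with summed levels of 699 to 752 TPM in control against 348 to 395 TPM on day 5, and 801 to 813 against 329 to 369 TPM on day 7. Microglia markers were lower for 2 of 6 genes on day 5 (Tmem119 and Csf1r) and 6 of 6 on day 7 (193 to 207 against 83.7 to 105 TPM), none of them at 0, and oligodendrocyte lineage markers for 4 of 7 genes on day 5 (Pdgfra, Sox10, Cspg4 and Olig2) and 6 of 7 on day 7 (241 to 316 against 154 to 217 TPM on day 5, and 401 to 448 against 262 to 289 TPM on day 7). Of 9 stem cell and radial glia markers, 3 were higher (Gfap, Vim and Fabp7) and 3 lower (Nes, Tnc and Hes5) on day 5, and 2 were higher (Gfap and Vim) and 6 lower on day 7. Their summed level, most of it Vim and Fabp7, was 14674 to 15907 TPM in control against 18968 to 20310 TPM on day 5 and 8110 to 8535 against 8598 to 9485 TPM on day 7. Of 7 astrocyte markers, 2 were higher (Aldoc and Agt) and 1 lower (Slc1a2) on day 5, and 3 were higher (Agt, Aldoc and Aldh1l1) and 1 lower (S100b) on day 7, with sums of 2535 to 2852 against 2835 to 3189 TPM and 2164 to 2236 against 2774 to 2890 TPM. Of 8 ventral forebrain markers, 5 were lower (Lhx6, Gsx2, Dlx5, Gad1 and Dlx1) on day 5, with sums of 170 to 218 TPM in control against 139.5 to 158 TPM, and 3 were higher (Gad1, Gad2 and Dlx1) on day 7, with 270 to 295 against 298 to 354 TPM. Of 7 neuron markers, 2 were higher (Stmn2 and Syt1) and 2 lower (Dcx and Map2) on day 5, and 3 were higher (Snap25, Syt1 and Rbfox3) and 2 lower (Map2 and Stmn2) on day 7, and their sums overlapped on both days. In bulk RNA, fewer cells of a type and less RNA per cell cannot be told apart, and the part of these shifts in the members' differences was not tested.

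In TPM per gene, Sox2 was the most abundant member in every group, with group means from 145 to 176 TPM. Lhx2, Pax6 and Nr2e1 followed between 49.5 and 69.9 TPM, and their order could not be told in most groups because the ranges of neighbours overlapped, except that Pax6 lay above Nr2e1 in shRNA CON on day 7 and in shRNA RUS on day 5. Sox1 had 20.2 to 41.3 TPM and Emx2 15.4 to 29.5 TPM. Sox1 ranked above Emx2 in 3 groups, and in shRNA RUS on day 5 the order was turned, at 20.2 TPM for Sox1 and 29.5 TPM for Emx2 with no overlap of the libraries. Sox3, Emx1 and Hmga2 were the lowest in every group, at 7.48 to 10.7, 2.28 to 7.11 and 0.19 to 0.82 TPM. Sox3 and Emx1 overlapped only in shRNA CON on day 7. Within the SoxB1 group Sox2 supplied 76.3 to 82.4% of the summed TPM. The share of Sox1 on day 5 was 15.8 ± 1.5% in shRNA CON against 11.5 ± 1.1% in shRNA RUS, and 18.6 ± 0.55% and 18.2 ± 0.65% on day 7 (SD, n = 4).

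**Figure D1:**
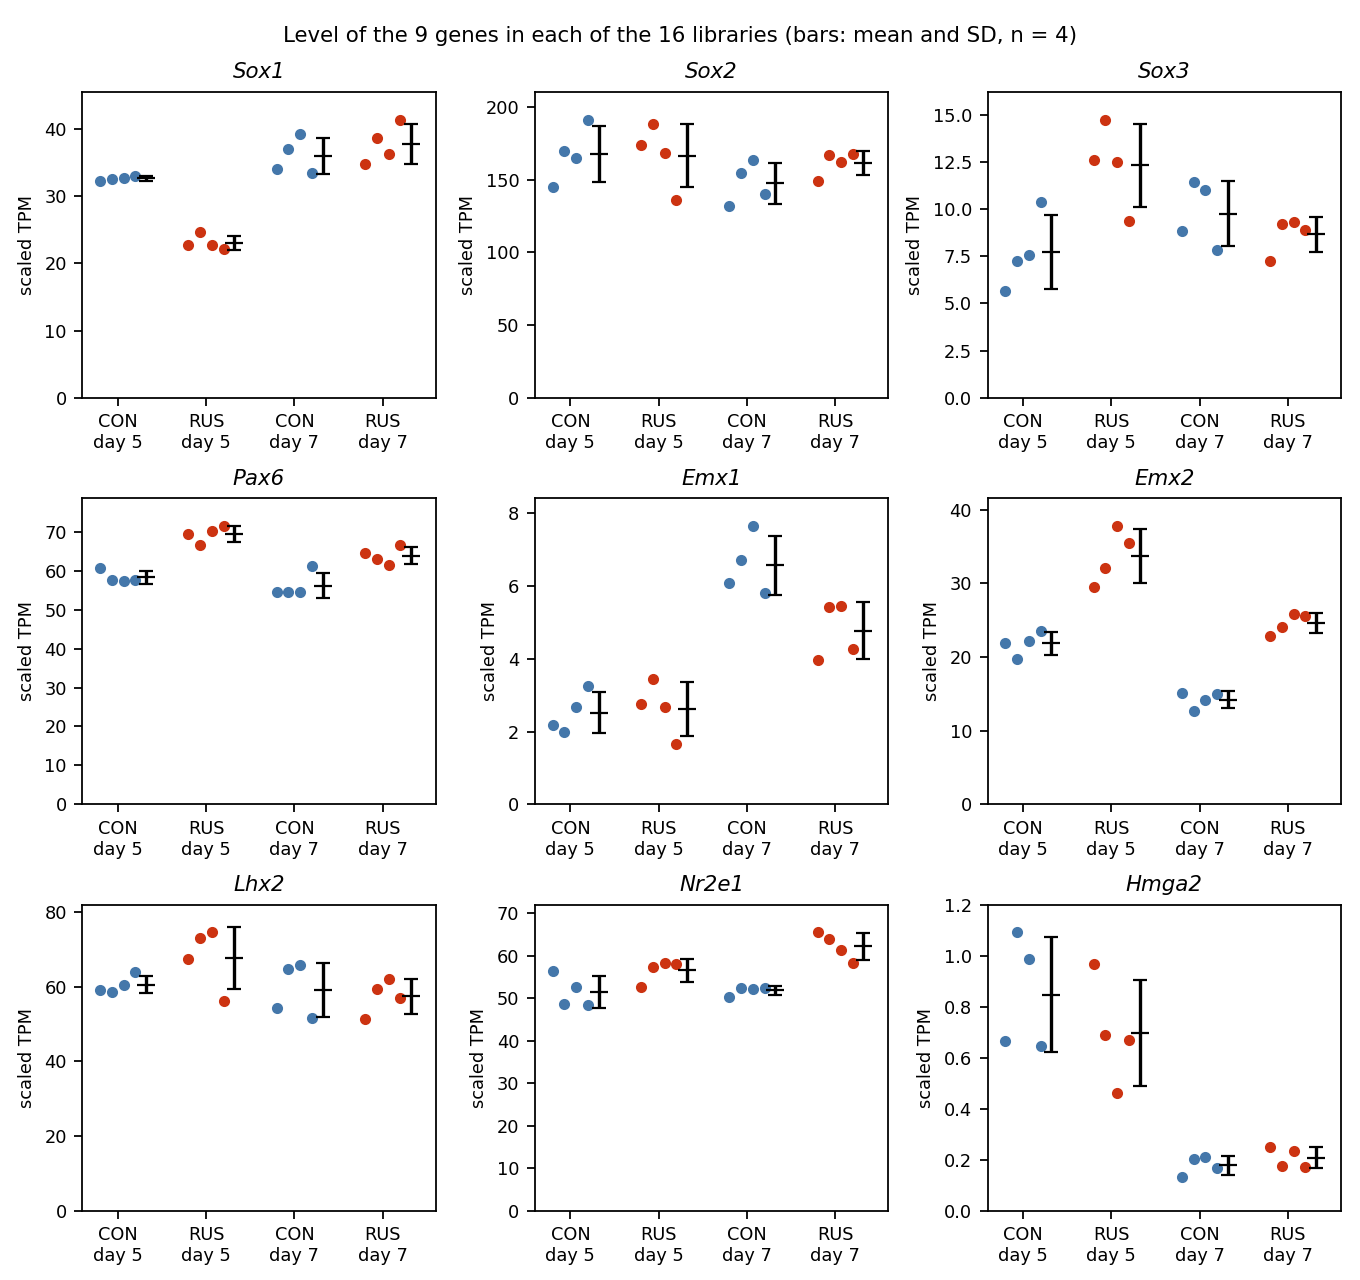
Scaled TPM (TPM divided by a library factor) of the 9 genes, on a linear axis from 0, in the 4 groups: blue points are shRNA CON libraries, red points are shRNA RUS libraries, and the black bars are the mean and SD of 4 libraries. The 4 shRNA RUS libraries of day 5 stood at 22.2 to 24.6 for Sox1, below all others, and Emx2 was higher in shRNA RUS on both days with no overlap.

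The first comparison asked how stem cell factors differed between shRNA RUS and shRNA CON at the end of growth in FGF2, on day 5. On that day the TPM of these libraries alone did not show a lower level of Gm20754. For this gene, shRNA RUS library 4 lay above every control library. The paper's RT-qPCR, as stated above, did report reduced RUS in this experiment. The values given from here on are scaled TPM unless another unit is named, and a gene was called when the Benjamini-Hochberg adjusted p of limma over all genes tested was under 0.05. On day 5, 4 of the 9 members were called, beside 32.7% of all 22581 genes tested. Sox3, Pax6 and Emx2 were higher in shRNA RUS (14.8% of all genes were called higher) and Sox1 was lower (17.9% of all genes were called lower). The median log2 fold change was 0.14 over the members and -0.06 over all genes. The groups did not overlap for 3 of the 9 members, against 32.9% of all genes, so the members' share resembles the background. On day 7, after differentiation medium, 4 of 9 were called again (background 49.2%): Pax6, Emx2 and Nr2e1 were higher (23.4% of all genes) and Emx1 was lower (25.8%). The groups did not overlap for 4 of 9 members, against 46.8% of all genes. The members' median log2 fold change on day 7 was 0.15, against -0.03 over all genes.

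**Figure D2:**
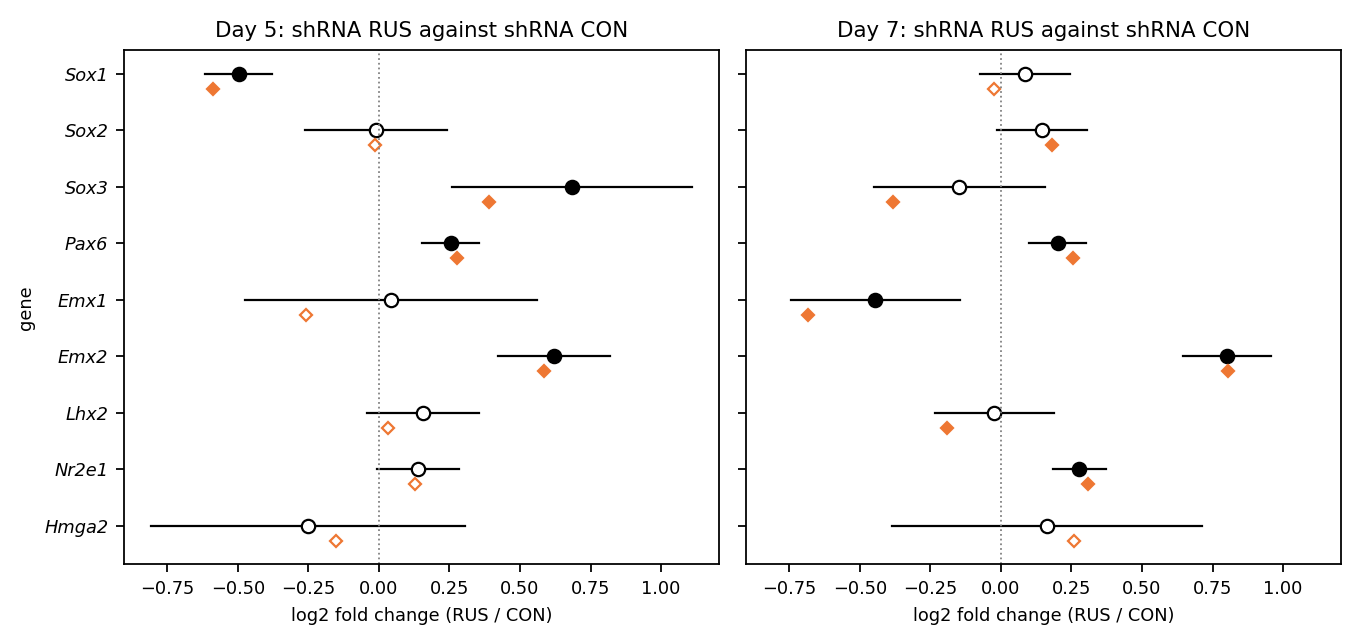
The log2 fold change of shRNA RUS over shRNA CON for the 9 genes. Black circles are the limma estimates with 95% intervals, day 5 on the left and day 7 on the right, filled where the adjusted p was under 0.05, and orange diamonds are the estimates after a correction for transcript GC content, filled by the same threshold. Emx2 lay at 0.62 and 0.80 on the 2 days, whereas Sox1 lay at -0.50 on day 5 and 0.08 on day 7.

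Among the SoxB1 genes, Sox1, a gene of neural progenitors, was the member that fell on day 5. It stood at 32.3, 32.6, 32.7 and 33.1 in shRNA CON and at 22.8, 24.6, 22.8 and 22.2 in shRNA RUS. The control libraries were close to each other, and every shRNA RUS library was below them. The fall of Sox1 was 29.1% (log2 fold change -0.50 ± 0.053 SE, limma adjusted p = 1.55e-04), and it was called in all 19 alternatives of the analysis. On day 7 the values were 34.0, 37.1, 39.3 and 33.5 in shRNA CON and 34.8, 38.7, 36.2 and 41.4 in shRNA RUS. These groups overlapped, with a log2 fold change for Sox1 of 0.08 (95% interval -0.07 to 0.24, limma adjusted p = 0.362), so that an effect of the size seen on day 5 lies outside the interval. The change of the effect between the days was itself significant (difference of log2 fold changes 0.57 ± 0.086 SE, limma adjusted p = 1.92e-04), beside 29.8% of all genes called in that comparison.

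Sox1ot, the noncoding gene that contains Sox1 on the same strand, was lower on both days. It was at 27.5, 22.2, 22.9 and 23.0 in shRNA CON and 10.6, 11.3, 10.5 and 13.3 in shRNA RUS on day 5 (log2 fold change -1.06, limma adjusted p = 7.88e-05). On day 7 it was at 41.1, 41.4, 42.8 and 41.8 against 27.6, 27.9, 29.8 and 28.2 (-0.54, limma adjusted p = 3.90e-06). Sox1ot therefore stayed below control on day 7, when the Sox1 groups overlapped. The ratio of Sox1ot to Sox1 TPM on day 5 was 0.732 ± 0.081 in shRNA CON against 0.496 ± 0.070 in shRNA RUS, and 1.17 ± 0.074 and 0.754 ± 0.065 on day 7 (SD, n = 4). Sox1 overlaps Sox1ot on the same strand, but whether their exons overlap was not examined. How the quantification divided any shared reads was not tested. Sox2ot, which contains Sox2, was at 67.9 ± 7.7 TPM in shRNA CON against 59.3 ± 5.5 TPM in shRNA RUS on day 5, and at 99.9 ± 3.8 and 105 ± 2.0 TPM on day 7, and was called on neither day (log2 fold changes -0.03 and 0.07, limma adjusted p = 0.740 and 0.146).

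**Figure D3:**
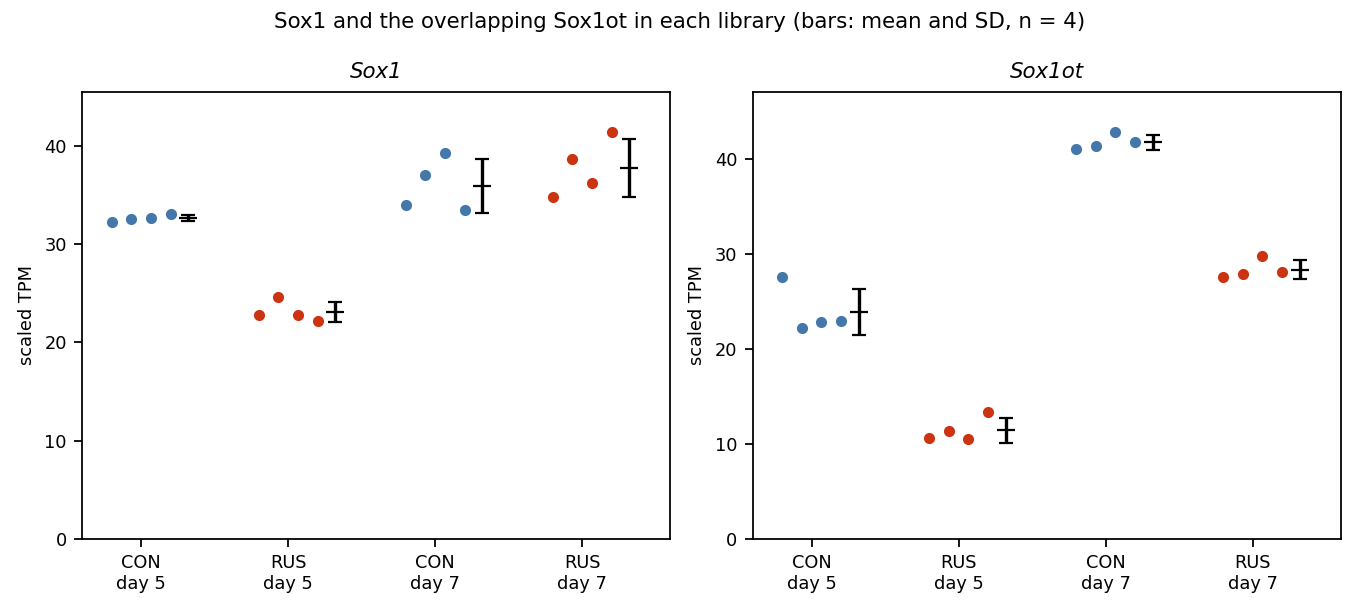
Scaled TPM of Sox1 (left) and of the overlapping noncoding gene Sox1ot (right) per library, shRNA CON in blue and shRNA RUS in red, with mean and SD of 4 libraries in black and both axes starting at 0. On day 7 the Sox1 groups overlapped, while Sox1ot was at 41.1 to 42.8 in shRNA CON and 27.6 to 29.8 in shRNA RUS.

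Sox2, the SoxB1 protein shared by pluripotent and neural stem cells, was called on neither day. On day 5 it was at 145, 169, 165 and 191 in shRNA CON and 174, 188, 168 and 136 in shRNA RUS, ranges that overlapped widely (log2 fold change -0.01, 95% interval -0.26 to 0.24, limma adjusted p = 0.957). On day 7 it was at 132, 154, 164 and 140.3 against 149, 167, 162 and 168, again with overlap (0.15, interval -0.01 to 0.30, limma adjusted p = 0.117). A change of Sox2 of a size within these intervals is therefore not excluded. Without control library 3 of day 7 the effect was called (limma adjusted p = 0.0353, range over 19 alternatives 0.0329 to 0.294).

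Sox3, the SoxB1 gene on the X chromosome, was higher in shRNA RUS on day 5 by the test, but its groups overlapped. It was at 5.67, 7.24, 7.58 and 10.4 in shRNA CON and 12.6, 14.7, 12.5 and 9.39 in shRNA RUS, where library 4 of each group lay among those of the other group. The log2 fold change of Sox3 was 0.68 ± 0.19 SE (limma adjusted p = 0.0214, range over 19 alternatives 0.00465 to 0.0650). Among fits that leave out a library, the call was lost without control library 1 or 2 or without shRNA RUS library 1, 2 or 3, with adjusted p between 0.0503 and 0.0598. On day 7 Sox3 was at 8.82, 11.4, 11.0 and 7.81 in shRNA CON and 7.27, 9.18, 9.30 and 8.87 in shRNA RUS (log2 fold change -0.15, 95% interval -0.45 to 0.16, limma adjusted p = 0.403). The effect on Sox3 differed between the days in the direction opposite to that of Sox1 (difference -0.84 ± 0.25 SE, limma adjusted p = 0.0171), and this difference was called in all 26 alternatives.

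Emx2, which in the embryo marks the medial and caudal cortex and its progenitors, was higher in shRNA RUS on both days, with the largest increase of the members on day 7. On day 5 it was at 22.0, 19.8, 22.2 and 23.6 in shRNA CON and 29.5, 32.1, 37.8 and 35.4 in shRNA RUS (1.54-fold, log2 fold change 0.62 ± 0.089 SE, limma adjusted p = 7.78e-04). On day 7 it was at 15.1, 12.6, 14.2 and 15.0 against 22.9, 24.0, 25.8 and 25.6 (1.74-fold, 0.80 ± 0.069 SE, limma adjusted p = 1.09e-05). All shRNA RUS libraries lay above all control libraries of the same day, and both calls held in all 19 alternatives. The effects on the 2 days did not differ by the test (difference 0.17, 95% interval -0.08 to 0.41, limma adjusted p = 0.296). The antisense Emx2os was much lower, at 2.08 ± 0.11 TPM in shRNA CON and 1.40 ± 0.15 TPM in shRNA RUS on day 5 (SD, n = 4), where its log2 fold change was -0.39 (limma adjusted p = 0.0202), opposite to Emx2. On day 7 Emx2os was at 1.23 ± 0.039 and 1.40 ± 0.11 TPM and was not called (limma adjusted p = 0.263).

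Emx1, a marker of cortical progenitors and of the excitatory neurons they form, was far less abundant. On day 5 it was at 2.17, 1.98, 2.68 and 3.24 in shRNA CON and 2.75, 3.45, 2.68 and 1.65 in shRNA RUS (log2 fold change 0.04, 95% interval -0.48 to 0.56, limma adjusted p = 0.910). On day 7 it was at 6.09, 6.73, 7.65 and 5.82 against 3.97, 5.42, 5.46 and 4.26, with every shRNA RUS library below every control library. The fall of Emx1 on day 7 was 26.5% (log2 fold change -0.44 ± 0.13 SE, limma adjusted p = 0.0193, range over 19 alternatives 6.15e-05 to 0.0683). It was lost without control library 3 or shRNA RUS library 4 (adjusted p = 0.0531 and 0.0536), and in 1 fit over the 16 libraries (0.0683). A difference of the effect between the days was not shown for Emx1 (-0.50, limma adjusted p = 0.198). The ratio of Emx2 to Emx1 TPM was 8.91 ± 1.4 in shRNA CON against 13.9 ± 5.4 in shRNA RUS on day 5, and 2.20 ± 0.39 and 5.23 ± 0.77 on day 7 (SD, n = 4), and on day 7 the libraries of the 2 shRNAs did not overlap in this ratio, at 1.85 to 2.57 against 4.44 to 6.01.

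Pax6, the paired homeodomain factor of dorsal radial glia, was a little higher in shRNA RUS on both days. On day 5 it was at 60.7, 57.6, 57.4 and 57.6 in shRNA CON and 69.5, 66.6, 70.3 and 71.6 in shRNA RUS (19.2% higher, log2 fold change 0.25 ± 0.045 SE, limma adjusted p = 0.00258). On day 7 it was at 54.6, 54.5, 54.6 and 61.2 against 64.6, 63.1, 61.5 and 66.7 (15.0% higher, 0.20 ± 0.045 SE, limma adjusted p = 0.00452). The groups did not overlap on either day, though the highest control library of day 7 (61.2) came close to the lowest shRNA RUS library (61.5). With TPM as deposited, which lowers the all-gene median on day 5 to -0.21, that of Pax6 on day 5 was 0.10 and not called (limma adjusted p = 0.305, range over 19 alternatives 2.78e-04 to 0.305), 0.30 above the median of all genes. Pax6os1, antisense to Pax6, was at 1.61 ± 0.22 TPM in shRNA CON and 1.01 ± 0.20 TPM in shRNA RUS on day 7 and was called lower (log2 fold change -0.64, limma adjusted p = 0.0127), while on day 5 it was at 1.16 ± 0.032 and 1.18 ± 0.26 TPM (limma adjusted p = 0.478).

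Lhx2, the LIM homeodomain selector of cortical identity, was not called on either day. It was at 59.2, 58.7, 60.6 and 64.0 in shRNA CON and 67.6, 73.0, 74.6 and 56.2 in shRNA RUS on day 5, where 3 shRNA RUS libraries were above all controls and library 4 below them (log2 fold change 0.16, 95% interval -0.04 to 0.36, limma adjusted p = 0.212). Without that library it was 0.25 and called (limma adjusted p = 0.00880, range over 19 alternatives 0.00880 to 0.987). On day 7 Lhx2 was at 54.4, 64.9, 65.9 and 51.6 against 51.3, 59.5, 62.1 and 57.1, with wide overlap (-0.02, interval -0.24 to 0.19, limma adjusted p = 0.864).

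Nr2e1 was higher in shRNA RUS on day 7. It was at 50.4, 52.5, 52.1 and 52.5 in shRNA CON and 65.5, 64.0, 61.3 and 58.3 in shRNA RUS, without overlap (21.2% higher, log2 fold change 0.28 ± 0.042 SE, limma adjusted p = 4.03e-04), and this call held in all 19 alternatives. On day 5 it was at 56.4, 48.7, 52.7 and 48.5 against 52.6, 57.5, 58.3 and 58.1, where library 1 of each group overlapped the other group (0.14, 95% interval -0.01 to 0.28, limma adjusted p = 0.134). With 75th percentile scaling it was 0.22 and called (limma adjusted p = 0.0215, range over 19 alternatives 0.0215 to 0.881), which made 5 members called on day 5 beside 7502 of 22581 genes, while its distance from the median of all genes was 0.20 in the main scaling and 0.21 in this one. The effects of the 2 days were not shown to differ for Nr2e1 (difference 0.13, limma adjusted p = 0.232).

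Hmga2 was close to the lower end of what the tables resolve and was not called for the shRNA. On day 5 it was at 0.667, 1.09, 0.989 and 0.646 in shRNA CON and 0.970, 0.690, 0.463 and 0.668 in shRNA RUS (log2 fold change -0.25, 95% interval -0.81 to 0.30, limma adjusted p = 0.472). On day 7 it was at 0.131, 0.202, 0.211 and 0.169 against 0.250, 0.174, 0.236 and 0.173 (0.16, interval -0.38 to 0.71, limma adjusted p = 0.615). The groups overlapped on both days.

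The second question was how the same genes moved from proliferating to differentiating culture, between day 5 and day 7. Day and medium change together in this design and cannot be told apart. In shRNA CON 3 of 9 members were called, beside 48.5% of all genes tested, 1 of them higher (26.9% of all genes) and 2 lower (21.6%), and the groups did not overlap for 4 (46.9% of all genes). Hmga2 fell by 70.3% (log2 change -1.75 ± 0.22 SE, limma adjusted p = 9.40e-06) and Emx2 by 34.8% (-0.62, limma adjusted p = 1.19e-05). Emx1 rose 2.58-fold (1.37 ± 0.20 SE, limma adjusted p = 3.01e-05). These calls held in all alternatives run, 26 for Emx1 and Emx2 and 25 for Hmga2, which is below the filter at 1 TPM. The size of the change of Hmga2 depends on the pseudocount, with log2 changes of -0.64 for a pseudocount of 1 and -2.18 for 0.01. The other 6 gave log2 changes from -0.18 for Sox2 to 0.35 for Sox3 with limma adjusted p between 0.0766 and 0.901, and the smallest of these was that of Sox1 (0.14), whose groups did not overlap. Cell type markers moved in the same comparison. Of 3 fibroblast and meningeal markers tested, 2 were lower, with list sums of 12.78 to 16.75 TPM on day 5 and 3.99 to 5.4 TPM on day 7. Higher and lower were 5 and 1 of 7 neuron, 5 and 1 of 7 oligodendrocyte lineage and 4 and 0 of 6 microglia markers. The part of these shifts in the members' changes was not tested.

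In shRNA RUS 8 of 9 members were called between the days (60.8% of all genes), 3 of them higher (35% of all genes) and 5 lower (25.8%), and the groups did not overlap for 5 (52.5% of all genes). Without shRNA RUS library 2 of day 5, or library 1 or 2 of day 7, 5 members were called, beside 13808 to 13862 of all genes against 14452 with all libraries. This comparison shares its day 5 libraries with the knockdown comparison of day 5. Sox1 rose 1.63-fold (log2 change 0.71, limma adjusted p = 6.32e-08) from its low value on day 5, and Emx1 rose 1.82-fold (0.87, limma adjusted p = 0.00122). Hmga2 fell by 60.6% (-1.34, limma adjusted p = 8.02e-05), Emx2 by 26.7% (-0.45, limma adjusted p = 1.69e-04) and Sox3 by 28.9% (-0.49, limma adjusted p = 0.0225). With TPM as deposited Emx2 was at -0.13 (limma adjusted p = 0.250, range over 26 alternatives 6.47e-06 to 0.250) and Sox3 at -0.17 (limma adjusted p = 0.380, range 9.54e-04 to 0.380), and neither was called. Sox3 was also not called without shRNA RUS library 2 of day 5 (adjusted p = 0.0741) or library 1 of day 7 (0.0724). The changes of Lhx2 (-0.23, limma adjusted p = 0.0436), Pax6 (-0.12, limma adjusted p = 0.0294) and Nr2e1 (0.14, limma adjusted p = 0.0376) were small and turned with the scaling, to 0.09 for Lhx2 and 0.20 for Pax6 with TPM as deposited and -0.03 for Nr2e1 with 75th percentile scaling. With TPM as deposited Pax6 was called higher (limma adjusted p = 0.00462), opposite to the main scaling. The median log2 change of all genes moved from 0.13 to 0.41 with TPM as deposited, a shift common to all genes. Nr2e1 lay at 0.0061 against the median of all genes in the main scaling and at -0.025 with 75th percentile scaling. Set against the median, Pax6 was at -0.25 in the main scaling and -0.21 with TPM as deposited, Lhx2 at -0.36 and -0.32, Emx2 at -0.58 and -0.54, Sox3 at -0.62 and -0.59, and Sox2 at -0.17 and -0.13. With quantile normalization these distances were 0.0048 for Pax6, -0.11 for Lhx2, -0.48 for Emx2, -0.65 for Sox3 and 0.31 for Sox2. For Sox2 the change was -0.04 (limma adjusted p = 0.770), and its log2 change was called higher with TPM as deposited (0.29, where the median of all genes was 0.41) and with quantile normalization (0.32, where that median was 0.01).

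A division of each gene's sum of squares over the 16 libraries shows how unlike the members were. For Pax6, Nr2e1 and Emx2 the shRNA took the largest share, 72.6, 60.6 and 59.7%. For Hmga2, Emx1 and Sox1 the day took most, 88.9, 76.8 and 54.4%, and for Sox1 a further 25.0% lay in the interaction of shRNA and day. Sox3 had the largest interaction share, 38.0%, with 46.4% between libraries of a group. For Sox2 and Lhx2 most of the spread, 76.7 and 66.6%, lay between libraries of the same group. These shares describe these libraries and carry no test.

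**Figure D4:**
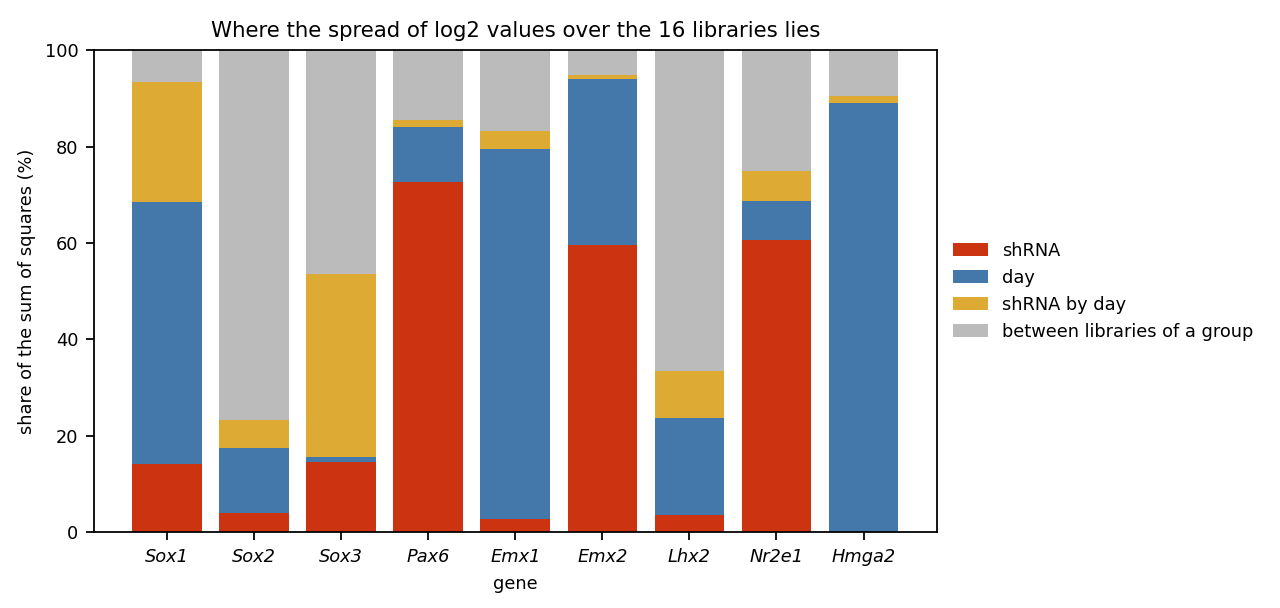
Share (%) of the sum of squares of log2 scaled TPM over 16 libraries that lies between the shRNAs (red), between the days (blue), in their interaction (yellow) and between libraries of a group (grey), for each of the 9 genes. The shRNA took 72.6% for Pax6, the day 88.9% for Hmga2, and the spread between replicates 76.7% for Sox2.

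The large spread of Sox2, Sox3, Lhx2 and Emx1 between libraries of a group was not independent from gene to gene. When each library was set against the mean of its group, the deviations of Sox2 and Sox3 had a Pearson correlation of 0.92 over the 16 libraries, those of Sox3 and Emx1 0.84, of Sox2 and Emx1 0.83, of Emx1 and Lhx2 0.82 and of Sox3 and Lhx2 0.81. Pax6 deviated the other way, at -0.67 against Sox3 and -0.62 against Lhx2. The points share their libraries and scaling factors, so these are descriptions without a test. The transcripts of Emx1 and Sox3 have a GC content of 66.8 and 66.4%, higher than 99.8% of 13183 expressed coding genes, and Lhx2 has 58.5% (higher than 90.7%). Hmga2 has 45.7% and Pax6 49.3%, below the middle of all genes. As a measure of GC in a library, the median deviation of the GC-rich 10% of genes (at least 58.3% GC) minus that of the GC-poor 10% (up to 41.8%) was taken. It ran from -0.38 in shRNA RUS library 4 of day 5 to 0.28 in library 2. The members' deviations correlated with it at 0.78 for Lhx2, 0.76 for Emx1, 0.74 for Sox3 and 0.68 for Sox2, though the GC content of Sox2 is ordinary at 50.5%. They correlated at 0.54 for Sox1, whose GC content of 56.9% is above that of 84.1% of genes, at 0.26 for Emx2, -0.24 for Nr2e1 and -0.40 for Hmga2, and at -0.53 for Pax6.

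GC-rich and GC-poor genes also differed between the groups. The GC-rich 10% of genes had a median log2 fold change of 0.17 for shRNA RUS on day 5 and the GC-poor 10% of -0.23, and on day 7 these were 0.19 and -0.06. The fits were therefore repeated after removing from each library its trend over GC content, an alternative chosen after seeing the data and run on coding genes only. The removal takes out a GC trend between the groups as well as one within them, whatever its origin. On day 5 the same number of members, 4, was called (50.8% of the coding genes tested). The standard error of Sox3 went from 0.19 to 0.091 and its log2 fold change from 0.68 to 0.39 (limma adjusted p = 0.00465), while Sox1 was at -0.59, Emx2 at 0.59 and Pax6 at 0.28. On day 7, 7 members were called (69% of the coding genes). Emx1 was at -0.68 (limma adjusted p = 6.15e-05), Sox3 at -0.38 (limma adjusted p = 8.61e-04, range over 19 alternatives 8.61e-04 to 0.735) and Lhx2 at -0.19 (limma adjusted p = 0.0300, range 0.0300 to 0.906), and Sox2 at 0.18 (limma adjusted p = 0.0329, range 0.0329 to 0.294). With the trend removed Emx1 was at -0.26 on day 5 (limma adjusted p = 0.0723), and for Emx1 the difference of the effect between the days was called (-0.42, limma adjusted p = 0.0217, range over 26 alternatives 0.0217 to 0.368), 1 of 4 members called there (Sox1, Sox3, Emx1 and Lhx2) beside 47.7% of the coding genes. The values of Sox3, Emx1 and Lhx2 thus depend on how GC content is treated, while Emx2, Pax6 and Nr2e1 on day 7 were at 0.81, 0.26 and 0.31.

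**Figure D5:**
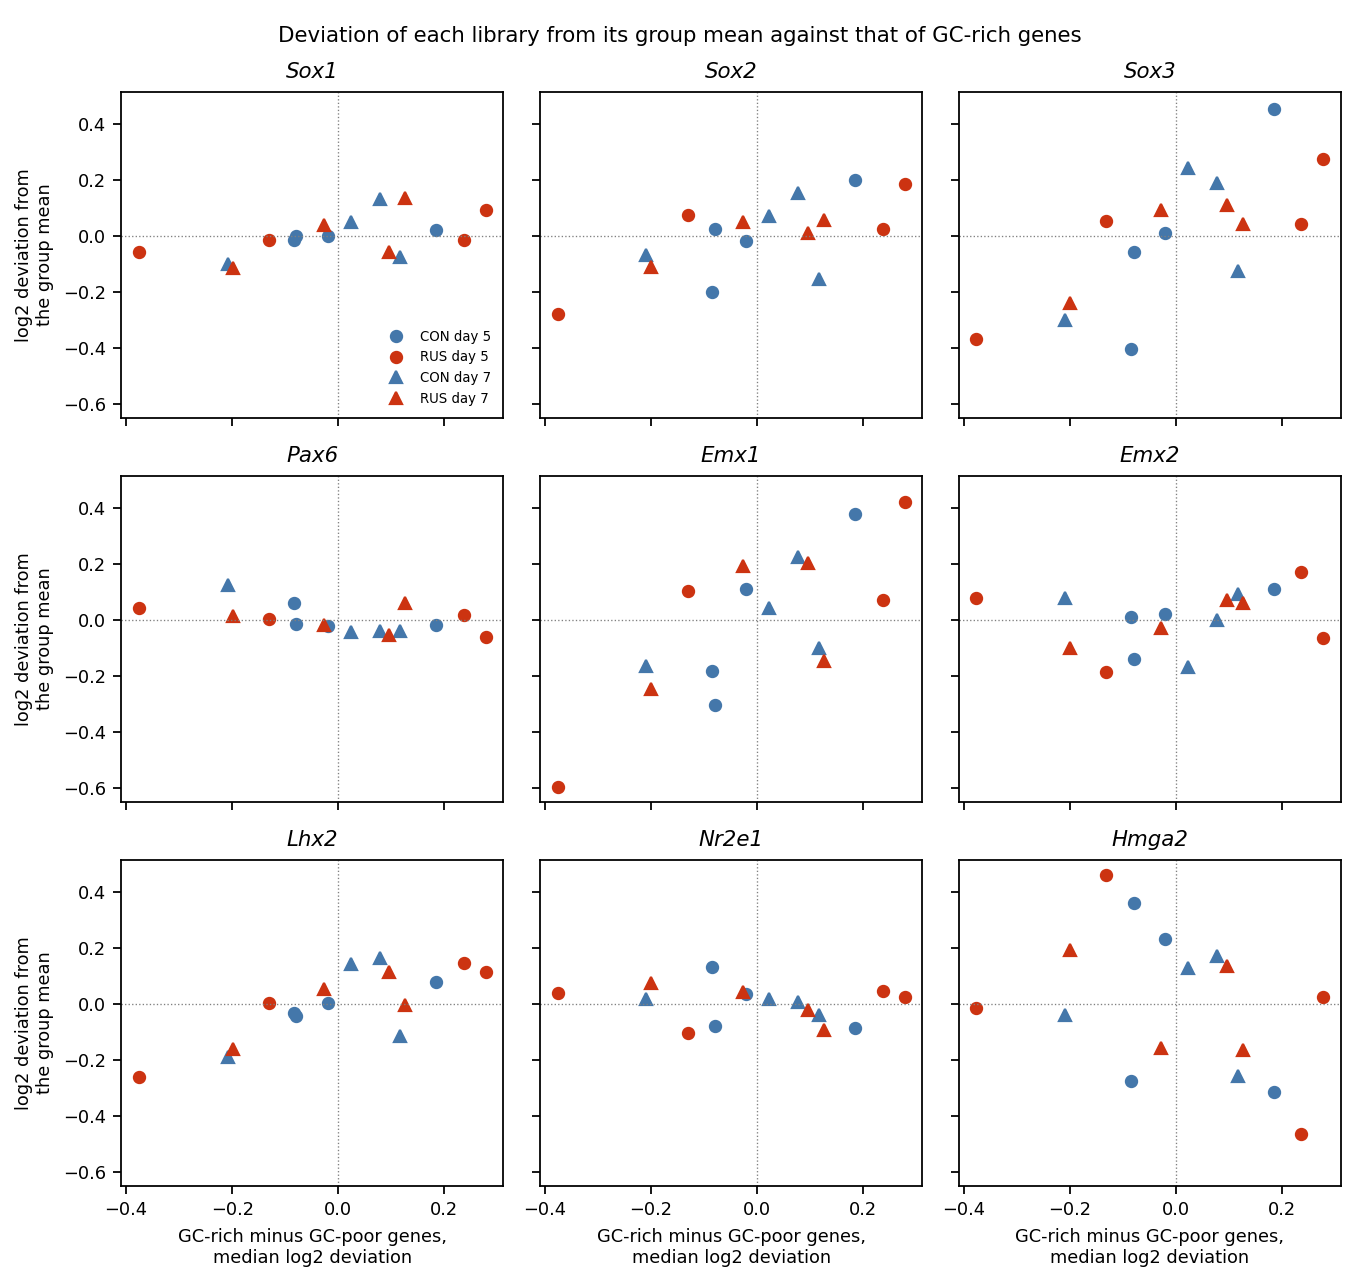
For each of the 16 libraries, the log2 deviation of a gene from its group mean (vertical axis) against the median log2 deviation of GC-rich minus GC-poor genes in that library (horizontal axis), with circles for day 5, triangles for day 7, blue for shRNA CON and red for shRNA RUS. The points of Lhx2, Emx1 and Sox3 rise together with the GC measure (r = 0.78, 0.76 and 0.74), and those of Pax6 fall (r = -0.53).

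The partners of these factors were read from lists written by hand. POU factors bind DNA beside SoxB1 proteins. Of the 5 listed, 2 were lower on day 5 and none was higher, and on day 7, 3 were higher (Pou3f2, Pou3f3 and Pou3f4) and none was lower, beside 32.7% of all genes called on day 5 and 49.2% on day 7. Pou3f2 (Brn2) was at 22.2 ± 1.2 TPM in shRNA CON and 14.9 ± 1.4 TPM in shRNA RUS on day 5 (log2 fold change -0.42, limma adjusted p = 0.00109), and at 24.5 ± 1.8 and 28.2 ± 1.3 TPM on day 7 (0.20, limma adjusted p = 0.0168). Pou2f1 (Oct1) was lower on day 5 (-0.56, limma adjusted p = 0.0208), and Pou3f3 (Brn1) was higher on day 7 (0.24, limma adjusted p = 8.51e-04). The list's median log2 fold change was -0.42 on day 5 and 0.17 on day 7.

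Of the 13 other Sox genes tested, 1 was higher and 6 were lower on day 5, and 4 were higher (Sox9, Sox21, Sox7 and Sox5) and 3 lower (Sox10, Sox8 and Sox6) on day 7, where the shares of all genes were 14.8% higher and 17.9% lower on day 5 and 23.4% and 25.8% on day 7. Sox9, a gliogenic SoxE gene of stem cells, was higher on both days (0.21 and 0.58, limma adjusted p = 0.0476 and 2.44e-04), while the groups overlapped on day 5. Sox8 was lower on both days (-0.76 and -0.60, limma adjusted p = 6.41e-05 and 9.00e-06), as was the oligodendrocyte factor Sox10, at -1.13 and -1.49 (limma adjusted p = 0.0397 and 0.00290), with overlapping groups on day 5. Sox7 was lower on day 5 (-0.77, limma adjusted p = 0.00480) and higher on day 7 (0.44, limma adjusted p = 0.00975). Sox21, a SoxB2 gene that counteracts SoxB1 proteins, was at 39.1 ± 2.8 TPM in shRNA CON and 54.6 ± 3.9 TPM in shRNA RUS on day 7 and was called higher (0.48, limma adjusted p = 1.70e-04).

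LIM cofactors tune LIM homeodomain proteins such as Lhx2: Ldb1 and Ldb2 bridge them, Ssbp proteins stabilise Ldb, and Lmo proteins compete for it. Of 8 listed, 2 were higher and none lower on day 5 (Ssbp2 and Lmo2), and 3 were higher (Ssbp3, Ssbp2 and Ldb1) and 3 lower (Lmo2, Lmo1 and Lmo4) on day 7, beside 32.7% of all genes called on day 5 and 49.2% on day 7. Ssbp2 was higher on both days (0.44 and 0.35, limma adjusted p = 1.43e-04 and 0.00187) and Ssbp3 on day 7 (0.43, limma adjusted p = 1.85e-04). Lmo1 was lower on day 7 (-0.52, limma adjusted p = 6.33e-04). Lmo2 was higher on day 5 (0.44, limma adjusted p = 0.0131) and lower on day 7 (-0.80, limma adjusted p = 8.72e-05), where it went from 5.56 ± 0.24 TPM in shRNA CON to 3.17 ± 0.37 TPM in shRNA RUS.

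Among 11 tested genes around Hmga2 and Nr2e1, 4 were higher (Cdkn1a, Hdac5, Hmga1 and Hdac3) and 3 lower (Igf2bp3, Cdkn2b and Igf2bp2) on day 5, and on day 7 Cdkn1a, Hdac5, Hmga1 and Kdm1a were among those higher and 4 were lower (Igf2bp1, Igf2bp3, Cdkn2a and Cdkn2b). Of all genes, 14.8% were higher and 17.9% lower on day 5, and 23.4% were higher and 25.8% lower on day 7. Cdkn1a (p21), a cell cycle inhibitor that Nr2e1 represses, was higher on both days, at 264 ± 15 TPM in shRNA CON and 302 ± 21 TPM in shRNA RUS on day 5 and 194 ± 13 against 314 ± 18 TPM on day 7 (log2 fold changes 0.35 and 0.69, limma adjusted p = 0.00376 and 5.37e-06). Hdac5, a corepressor partner of Nr2e1, was also higher (0.34 and 0.60, limma adjusted p = 0.0361 and 1.95e-05), with overlapping groups on day 5. The locus Cdkn2a, which Hmga2 is known to restrain, was lower on day 7 (-0.53, limma adjusted p = 0.0191), and Cdkn2b, which lies beside it, was lower on both days (-0.43 and -0.39, limma adjusted p = 0.0441 and 0.0262), with overlapping groups on day 7. Igf2bp3, an RNA-binding protein of fetal cells, was lower on both days (-0.44 and -0.60, limma adjusted p = 0.0345 and 0.00115). The let-7 antagonists Lin28a and Lin28b had group means of at most 0.048 TPM and were below the minimum for testing.

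Of 33 other transcription factors of forebrain stem cells, Sox9 and Sox21 from the Sox list among them (14.8% of all genes were higher and 17.9% lower on day 5, and 23.4% and 25.8% on day 7), 5 were higher (Id3, Dmrt3, Id2, Nr2f1 and Sox9) and 8 lower on day 5, and 20 were higher and 8 lower on day 7. The 2 largest increases on day 7 were Gli2, a transducer of Shh signals (4.54 ± 0.36 TPM in shRNA CON and 11.0 ± 1.0 TPM in shRNA RUS, log2 fold change 1.25, limma adjusted p = 2.75e-06), and Nfia, a factor of gliogenesis (46.8 ± 2.2 and 92.6 ± 3.6 TPM, 0.98, limma adjusted p = 2.41e-07). The largest decreases on day 7 were the BMP targets Id1 (-1.05, limma adjusted p = 1.73e-05) and Id3 (-0.86, limma adjusted p = 4.76e-06). Id3 was higher on day 5 (0.59, limma adjusted p = 0.0157) although its groups overlapped. Dmrt3 was also higher on day 5 (0.47, limma adjusted p = 0.0218), without overlap. The Notch target Hes1 (-1.31, limma adjusted p = 2.23e-04) and the deep layer factor Fezf2 (-0.76, limma adjusted p = 7.41e-04) had the largest decreases on day 5.

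The genes whose profiles over the 16 libraries were most like those of the members, by Pearson correlation of log2 values among 14860 other genes averaging 1 TPM or more on each day, were Pitpnm2 for Sox1 (r = 0.97), Ier5 for Sox2 (0.90), Trappc5 for Sox3 (0.90), Nudcd3 for Pax6 (0.95), Odf3b for Emx1 (0.97), Cttn for Emx2 (0.98), Col26a1 for Lhx2 (0.87), Clec16a for Nr2e1 (0.96) and F3 for Hmga2 (0.97). Pitpnm2 had the order of Sox1, with 26.1 ± 1.9 TPM in shRNA CON and 15.0 ± 0.69 TPM in shRNA RUS on day 5 and 37.1 ± 2.7 and 43.4 ± 4.7 TPM on day 7. The next most alike were Ccdc177 and Fam53b for Sox1, Ier5l and Zfp428 for Sox2, Gm1673 and Gm5914 for Sox3, Hsd17b7 and Dedd for Pax6, H4c12 and Fbxl14 for Emx1, 1810055G02Rik and Ube2v1 for Emx2, Arf6 and Aldh16a1 for Lhx2, Nacc2 and Pgam2 for Nr2e1, and Cd109 and Cfl2 for Hmga2. Between members the highest correlation was that of Pax6 and Emx2 (0.87) and the lowest that of Emx1 and Hmga2 (-0.85), over libraries that share 4 groups.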

How the data were processed

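Groups of NSC libraries follow the labels (shRNA and day, 4 each). The authors aligned the reads with STAR to mm10 with the GRCm38.99 transcript table, quantified them with RSEM and deposited TPM per library in a table for each day. The deposited columns of the authors' own DESeq2 comparison (a base mean, log2 fold changes, a test statistic, p-values) were not used. The tables hold no counts, so a count test was not possible and intervals for counting error are not given.

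TPM were divided by median-ratio library factors (genes with at least 1 TPM in every library of a fit), and 0.1 was added before the log2, so fold changes of low genes such as Hmga2 are understated. Genes averaging 0.1 TPM or more were tested with limma 3.58.1 in R 4.3.3 (lmFit, eBayes with a trend, two-sided, Benjamini-Hochberg adjustment, threshold 0.05). Knockdown effects were fitted per day, and changes between the days in 1 fit over 16 libraries, on 55365 lines with matching symbols (106 were left out). The 3 lines of day 5 without a gene name were dropped. Printed scaled TPM use the factors of the 16 library fit. The test was also run on simulated data with independent genes, few of them changed. That setting differs from these data, so no conclusion is drawn from it. Positions came from GENCODE vM21 and sequences from RefSeq and GENCODE, both GRCm38, matched by symbol.

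The genes named were the members, Gm20754, the 3 most similar genes of each member, up to 2 called increases and 2 decreases per list and day averaging 1 TPM or more, and genes overlapping members. Ldb1, Ldb2, Lin28a, Lin28b and the culture markers were named outside this rule. A listed gene is not reported here. The members and lists were chosen with earlier results of these data known. Alternatives were pseudocounts of 1 and 0.01, a filter at 1 TPM or none, TPM as deposited, quantile and 75th percentile scaling, the replicate number as a block, eBayes with no trend, leaving out each library, and, for the knockdown effects, 1 fit over 16 libraries. The GC correction (lowess per library, coding genes) was added after seeing the data. Python 3.11.15 was used for tables and figures.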

Additional observations from a re-analysis of the deposited data

Results flagged for a closer look

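The effect of the shRNA differed between the days for 2 members by the test of the difference itself, in opposite directions (2 of 9, beside 29.8% of all genes called): Sox1 with a difference of log2 fold changes of 0.57 (limma adjusted p = 1.92e-04) and Sox3 with -0.84 (limma adjusted p = 0.0171). In 3 of 40 groups of 4 libraries, for the members and Gm20754, the library farthest out lay apart from the other 3 by Dixon's criterion, and chance marks about 1 in 20 such groups. Pax6 was at 60.7 in shRNA CON library 1 of day 5, with 57.6 the nearest, and at 61.2 in shRNA CON library 4 of day 7, with 54.6 the nearest. Nr2e1 was at 52.6 in shRNA RUS library 1 of day 5, with 57.5 the nearest.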

How the results depend on the processing

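The calls of Sox1 and Emx2 on day 5, of Pax6, Emx2 and Nr2e1 on day 7, of Emx1, Emx2 and Hmga2 over time in shRNA CON, and of Sox1 and Sox3 in the difference between the days held in every alternative run. So did those of Sox1, Emx1 and Hmga2 over time in shRNA RUS, and the other calls there did not. Over 1039 values of single genes under an alternative, 943 kept direction and side of the threshold, 42 lost and 20 gained the call, and 34 turned. The replicate numbers do not pair the libraries (correlations of deviations -0.23 to 0.17 over 24 pairs, 6 best with their own number). With the number as a replicate block, members called were 3, 4, 3, 7 and 2 for knockdown on day 5, on day 7, time in shRNA CON, time in shRNA RUS and the difference between days, beside 4966 of 22581, 11225 of 24606, and 11241, 14223 and 6622 of 23789 genes called (7383, 12108, 11527, 14452 and 7090 without it). The call of Sox3 on day 5 was lost under the block (limma adjusted p = 0.0650).

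Members called over time in shRNA CON were 5 with TPM as deposited, 5 with 75th percentile scaling and 6 with the GC correction, against 3, beside 12007 and 11617 of 23789 genes and 64.9% of coding genes. In shRNA RUS they were 5 without a trend in eBayes and 5 to 8 on leaving out 1 library, against 8. Of all genes, 14405 were called without the trend and 13753 to 14530 on leaving out 1 library, against 14452. With the GC correction the members called were 7 on day 7 and 4 for the difference between days, beside 69% and 47.7% of coding genes. The cause was not tested. Directions that turned were those of changes that were small in the main scaling, given as log2 values. With TPM as deposited these were Emx1 -0.11, Lhx2 -0.0021 and Nr2e1 -0.020 on day 5, Pax6 0.097 and Lhx2 0.11 over time in shRNA CON, Sox2 0.29, Pax6 0.20 and Lhx2 0.091 in shRNA RUS, and Pax6 0.11 in the difference. This scaling shifts all genes together, and set against the median of all genes each of these values kept the sign it has in the main scaling (on day 5, from 0.10 to 0.096 for Emx1, 0.22 to 0.20 for Lhx2 and 0.20 to 0.19 for Nr2e1). With quantile normalization they were Pax6 0.015 and Lhx2 0.032 in shRNA CON, Sox2 0.32 and Pax6 0.019 in shRNA RUS, and Pax6 0.0039 in the difference. With 75th percentile scaling they were Sox2 0.070 on day 5, and Nr2e1 -0.074 in shRNA CON and -0.034 in shRNA RUS. With the GC correction they were Emx1 -0.26 on day 5, Sox1 -0.024 on day 7, and Lhx2 0.10 and Nr2e1 -0.0062 in shRNA CON. Leaving out 1 library gave -0.080 to 0.085 for Sox2 and -0.098 to 0.24 for Emx1 on day 5, -0.090 to 0.034 for Lhx2 on day 7, -0.096 to 0.022 for Lhx2 and -0.020 to 0.052 for Nr2e1 in shRNA CON, and -0.13 to 0.022 for Sox2 in shRNA RUS. Some turned values over time in shRNA RUS were called higher. For Pax6, called lower in the main scaling, this was so with TPM as deposited (limma adjusted p = 0.00462). For Sox2 it was so with TPM as deposited and with quantile normalization (limma adjusted p = 0.00774 and 0.00558).

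TPM as deposited moved the split of all called genes from 3349 higher and 4034 lower to 1768 and 6037 on day 5, and to 8573 and 3434 over time in shRNA CON, 11801 and 3545 in shRNA RUS and 5700 and 2053 for the difference. With 75th percentile scaling these splits were 4359 and 3143 on day 5, 5373 and 6244 over time in shRNA CON (6394 and 5133 in the main scaling), 6618 and 7767 in shRNA RUS and 2665 and 4338 for the difference. TPM keep no depth, so the precision of low genes such as Hmga2 and Gm20754 is limited to the spread of 4 libraries.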
